A study of Mus musculus with 8 samples.

Results

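The nucleotide salvage enzymes described here are 10 mouse enzymes that recover nucleosides and free bases: Upp1, Uck1, Uck2, Cda and Dck on the pyrimidine side, and Hprt, Aprt, Pnp, Ada and Adk on the purine side. They were taken from the gene table by their Entrez identifiers, and 9 of the 10 had a row among 21950 genes. Adk, the adenosine kinase, had no row and was not analysed here. The enzymes were grouped by pathway with the difference between the same 8 libraries already known, so their own differences are given as a description, and calls among them are counted only beside the share of all genes called.

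The libraries were made from 4 d6PGCLC pools and 4 E12.5 PGC pools, all prepared in independent experiments. Primordial germ cells (PGCs) are the embryonic precursors of oocytes and sperm, and PGCLCs are their counterparts made in culture from pluripotent stem cells by way of epiblast-like cells (EpiLCs). The d6PGCLCs came from 1 female line of induced pluripotent stem cells with the Blimp1-Venus and Stella-ECFP reporters (BVSC-iPSC). They were grown with BMP4, SCF, LIF and EGF, and were sorted for both reporters 6 days into differentiation, on day 8 of culture. The PGCs were sorted by SSEA1 and integrin β3 from pooled gonads of female C57BL/6J fetuses at E12.5. The paper likens d6PGCLCs to migrating PGCs, an earlier stage than E12.5. Cell type, developmental stage, genetic background, culture and the sort differ together between the groups and cannot be told apart. In such bulk samples, fewer cells of a type and less RNA per cell cannot be told apart either.

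Cells make nucleotides either from small precursors, the de novo route, or by salvage of nucleosides and bases that are released by RNA and DNA turnover or taken up from outside. In pyrimidine salvage, kinases add a phosphate to uridine, cytidine or deoxycytidine, while a phosphorylase and a deaminase remove these nucleosides or convert them. In purine salvage, phosphoribosyltransferases join free bases to a ribose phosphate donor, and Pnp and Ada produce the bases and nucleosides that feed this step. Proliferating cells, such as early germ cells, draw on both routes.

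The promoters of 5 genes are shown, since the results turn on them: Upp1 and Cda, which differed most between the groups, Uck2 and Hprt, which with Aprt had the highest levels, and Slc28a1, a sodium-coupled carrier for pyrimidine nucleosides. Each window covers 250 bases before and 50 bases after the start site in the RefSeq annotation of GRCm38.p6. It is printed 5′ to 3′ on the strand of the gene. The transcript counted for each gene may start elsewhere, and the annotated intervals of Uck2, Cda and Slc28a1 begin upstream of their windows. Capitals mark the GC box (GGGCGG, or CCGCCC on the other strand) and the CCAAT box (CCAAT, or ATTGG on the other strand).
Upp1, chr11:9117758-9118057, plus strand, the most upstream of 3 annotated starts: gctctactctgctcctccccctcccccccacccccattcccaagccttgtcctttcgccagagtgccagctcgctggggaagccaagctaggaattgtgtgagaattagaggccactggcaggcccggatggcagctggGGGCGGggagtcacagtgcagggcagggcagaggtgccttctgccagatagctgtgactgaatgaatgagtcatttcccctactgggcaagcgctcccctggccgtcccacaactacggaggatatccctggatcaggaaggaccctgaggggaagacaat
Cda, chr4:138367906-138368205, minus strand: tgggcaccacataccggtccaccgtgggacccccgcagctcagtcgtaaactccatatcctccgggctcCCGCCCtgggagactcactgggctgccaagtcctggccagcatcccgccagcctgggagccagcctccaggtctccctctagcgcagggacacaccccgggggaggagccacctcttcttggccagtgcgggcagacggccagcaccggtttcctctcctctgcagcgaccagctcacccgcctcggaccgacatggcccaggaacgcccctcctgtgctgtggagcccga
Uck2, chr1:167285078-167285377, minus strand: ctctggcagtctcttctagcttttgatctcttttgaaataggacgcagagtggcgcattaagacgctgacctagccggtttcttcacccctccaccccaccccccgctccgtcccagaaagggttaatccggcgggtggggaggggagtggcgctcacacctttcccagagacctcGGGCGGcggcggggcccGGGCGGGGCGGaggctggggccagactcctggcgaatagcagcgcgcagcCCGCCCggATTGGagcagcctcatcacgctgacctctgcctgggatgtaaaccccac
Hprt, chrX:52987828-52988127, plus strand: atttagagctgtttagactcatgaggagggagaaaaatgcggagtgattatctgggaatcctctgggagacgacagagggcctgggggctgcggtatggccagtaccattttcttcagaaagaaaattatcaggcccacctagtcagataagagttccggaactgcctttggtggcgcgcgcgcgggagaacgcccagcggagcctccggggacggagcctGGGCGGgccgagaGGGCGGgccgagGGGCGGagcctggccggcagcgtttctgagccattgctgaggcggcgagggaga
Slc28a1, chr7:81114549-81114848, plus strand: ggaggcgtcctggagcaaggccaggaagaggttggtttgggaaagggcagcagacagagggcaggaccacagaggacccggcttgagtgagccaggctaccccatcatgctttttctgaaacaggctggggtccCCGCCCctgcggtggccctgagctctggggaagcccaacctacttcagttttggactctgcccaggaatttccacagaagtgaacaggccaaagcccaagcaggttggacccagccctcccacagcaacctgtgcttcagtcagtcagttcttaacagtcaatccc

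A GC box was present in 35.7% and a CCAAT box in 37.4% of the 32851 mouse promoters of this length. The Upp1, Cda and Slc28a1 windows each held 1 GC box, the Hprt window held 3 and the Uck2 window held 4 together with 1 CCAAT box. The ratio of observed to expected CpG dinucleotides was 0.155 for Slc28a1, 0.254 for Upp1, 0.531 for Cda, 0.702 for Uck2 and 0.844 for Hprt, against a median of 0.384 over all promoters. The windows at the other 2 annotated starts of Upp1 had ratios of 0.354 and 0.633, so that its 3 windows lie on both sides of the median. Among the 9 enzymes, the 4 with the highest length-normalized level (Uck2, Hprt, Aprt and Dck) had 3 to 6 GC boxes and the other 5 had 0 to 2. This split depends on where the cut is made. Dck had 6 GC boxes at a level under those of Uck2, Hprt and Aprt, and with Dck in the lower set the sets would overlap. The CpG ratios of the sets as given overlapped (0.588 to 0.844 and 0.254 to 0.729). Neither the TATA box (TATAAA, in 13.6% of all promoters) nor the E-box (CACGTG, in 7.15%) was found in the windows of the 9 enzymes, each searched on both strands. The ACGTG core of hypoxia response elements, which lies inside the E-box letters and was in 19.6% of all promoters, was found in the Aprt window and in 1 of the 3 Upp1 windows, which is not the one printed. These matches describe the letters in the windows only.

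Upp1 and Cda were far higher in d6PGCLCs than in E12.5 PGCs. Uck2, Hprt and Aprt were moderately higher and Dck was lower, whereas Uck1 and Pnp lay at about the same level in both groups. Levels are given as CPM, the reads of a gene per 1000000 counted reads after TMM scaling of the libraries. By edgeR's quasi-likelihood test over all genes, where a gene was called at an adjusted p (Benjamini-Hochberg) of at most 0.05, 5 of the 9 enzymes were called higher in d6PGCLCs (16.1% of all genes) and 1 lower (15.4% of all genes), 6 in all, where 31.5% of all genes were called in either direction. Among the 11434 genes whose mean reached 10 counts, to which all 9 enzymes belong, 53.7% were called, 28.1% higher and 25.6% lower. The 4 values of one group did not overlap those of the other for the same 6 enzymes, against 30.2% of all genes and 51.2% of those 11434 genes. The median log2 fold change of the 9 enzymes was 0.41, that of those 11434 genes was 0.01 and that of all genes was 0.0. Of all genes, 7734 had at most 3 reads in every library. Since the enzymes were chosen with this contrast known, nothing is read from these counts.

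**Figure D1:**
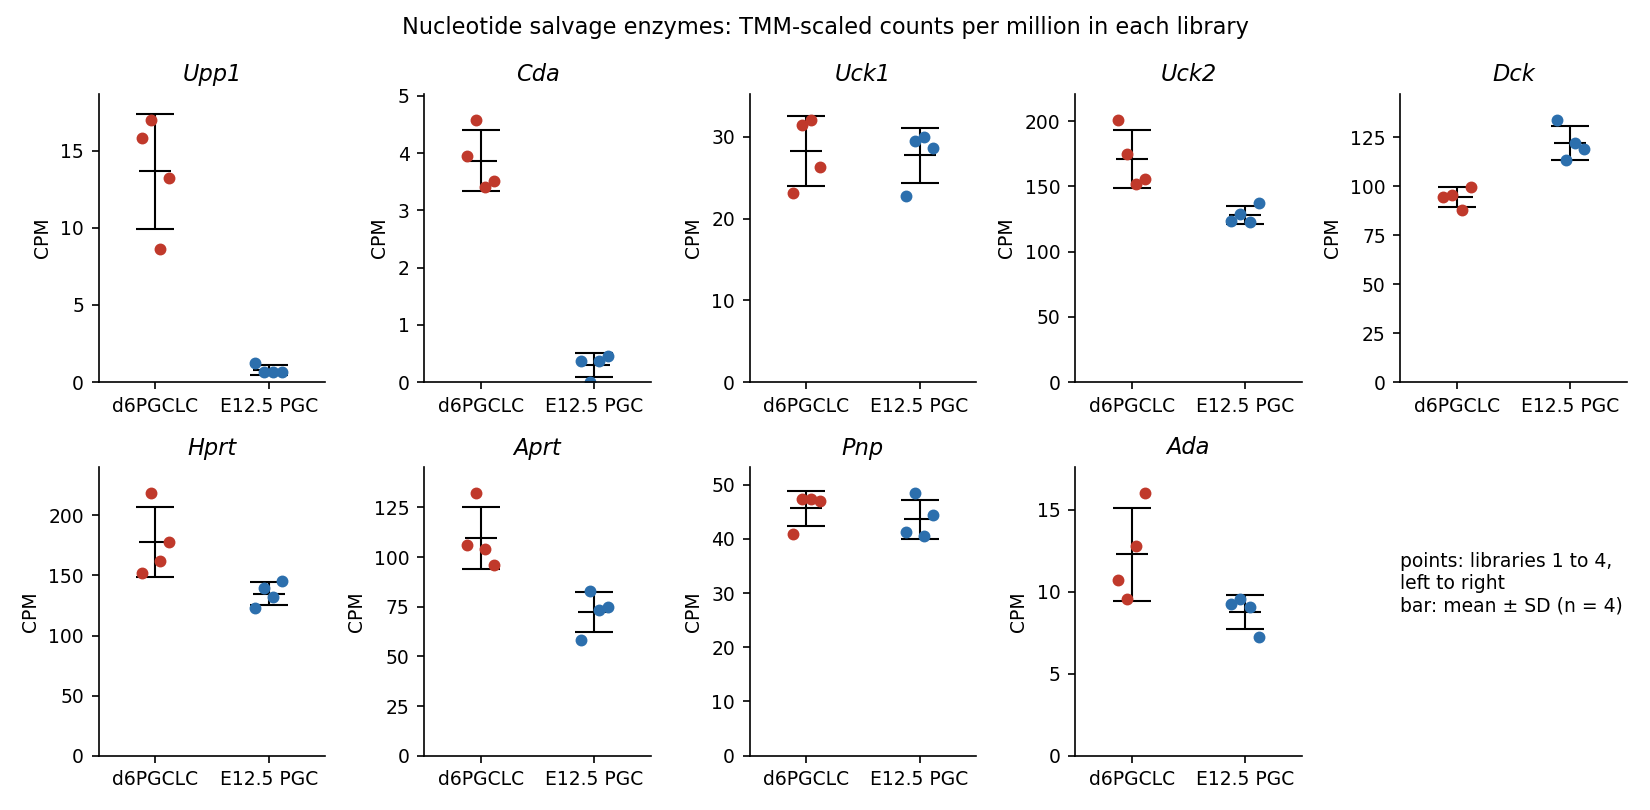
CPM (scaled by TMM) of the 9 salvage enzymes in each library, with d6PGCLCs in red and E12.5 PGCs in blue. Points are libraries 1 to 4 from left to right, and the black marks give the mean ± SD (n = 4). The groups are apart for Upp1, Cda, Uck2, Dck, Hprt and Aprt, and overlap for Uck1, Pnp and Ada.

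Upp1 encodes uridine phosphorylase 1, which splits uridine into uracil and ribose 1-phosphate (GRCm38.p6, chr11:9118008-9136170). In the 4 d6PGCLC libraries it was measured at 15.8, 17.0, 8.63 and 13.2 CPM, and in the 4 E12.5 PGC libraries at 1.25, 0.631, 0.645 and 0.632 CPM. The lowest d6PGCLC library was thus well above the highest PGC library. The means were 13.7 ± 3.71 and 0.789 ± 0.306 CPM (SD, n = 4 each), and the log2 fold change was 4.13 with a standard error of 0.33. These levels rest on 504 reads in d6PGCLCs and 30 in PGCs, and the ratio of the pooled, depth-corrected reads was 17.5 with an exact 95% interval of 12.1 to 26.1, which covers counting error only.

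Cda encodes cytidine deaminase, which turns cytidine and deoxycytidine into uridine and deoxyuridine (chr4:138338528-138368311). It was at 3.96, 4.58, 3.40 and 3.52 CPM in d6PGCLCs and at 0.374, 0, 0.369 and 0.451 CPM in PGCs. No PGC library reached the lowest d6PGCLC library, and 2 PGC libraries had at most 3 reads. The means were 3.86 ± 0.535 and 0.299 ± 0.203 CPM (SD, n = 4 each), and the log2 fold change was 3.62, standard error 0.51, which is 3.00 with a prior count of 2. In reads, this was 146 against 12, a pooled ratio of 12.6 with an exact 95% interval of 7.02 to 25.0. Upp1 and Cda were the 2 enzymes past the threshold that the study used, a log2 fold change of 2 or more in size and an adjusted p of at most 0.05, which 6.62% of all genes and 7.14% of the 11434 genes passed. Both enzymes act on nucleosides that the uridine-cytidine kinases also use.

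A pair of macrophage genes was also higher in d6PGCLCs. Of the blood cell markers, Cd68 was at 9.87 to 14.7 CPM in d6PGCLCs and 1.37 to 3.79 CPM in PGCs, and Csf1r was at 1.08 to 3.06 CPM in d6PGCLCs and at 0 in every PGC library. The leukocyte marker Ptprc and the myeloid marker Lyz2 had at most 1 read in any library. The summed level of the 7 measured blood cell markers ranged from 12.1 to 17.4 CPM in d6PGCLCs and from 1.75 to 34.8 CPM in PGCs, where embryonic globin Hbb-y reached 26.0 CPM in 1 library. The globin Hba-a2 was at 0 in every d6PGCLC library and at up to 5.05 CPM in PGCs. The d6PGCLCs had been sorted for both reporters, as given above. The part of macrophages or other blood cells in the levels of Upp1 and Cda was not tested.

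Uck2 and Uck1 encode the uridine-cytidine kinases, which phosphorylate uridine and cytidine in the first step of their salvage. Uck2 (chr1:167222895-167285933) was at 201, 174, 152 and 156 CPM in d6PGCLCs and at 124, 128, 123 and 137 CPM in PGCs. All d6PGCLC libraries were above all PGC libraries, but the gap between the groups was small beside the spread within d6PGCLCs. The means were 171 ± 22.4 and 128 ± 6.73 CPM (SD, n = 4 each), a log2 fold change of 0.41 with a standard error of 0.10. Its exons overlap those of Gm2453 on the opposite strand, and since the strand of the counting was not stated, reads of the overlap cannot be told apart.

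Uck1 (chr2:32255002-32260105) was at 23.1, 31.5, 32.1 and 26.3 CPM in d6PGCLCs and at 22.8, 29.5, 30.0 and 28.7 CPM in PGCs. The groups covered nearly the same range, with replicate 1 the lowest library of each. The means were 28.2 ± 4.30 and 27.7 ± 3.31 CPM (SD, n = 4 each), and the log2 fold change was 0.03 with a standard error of 0.14, which is -0.01 with library size normalization and -0.09 with a transcript length offset, so no direction is given. Uck1 shares exonic sequence with Pomt1 on the opposite strand, and 11.8% of the 100-base stretches of its transcript also occur in a transcript of Gm4482.

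Dck encodes deoxycytidine kinase, which phosphorylates deoxycytidine, deoxyadenosine and deoxyguanosine (chr5:88765013-88783277). It was the one enzyme of the 9 that was lower in d6PGCLCs and did not overlap between the groups. Its 4 d6PGCLC libraries were at 94.7, 95.6, 87.7 and 99.6 CPM, and its 4 PGC libraries at 134, 113, 122 and 119 CPM. The means were 94.4 ± 4.96 and 122 ± 8.64 CPM (SD, n = 4 each), and the log2 fold change was -0.37, standard error 0.09. The libraries of each group lay close together, with a coefficient of variation of 5.25% in d6PGCLCs and 7.08% in PGCs.

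On the purine side, the 2 phosphoribosyltransferases were both higher in d6PGCLCs. Hprt, which converts hypoxanthine and guanine to their nucleotides and is X-linked (chrX:52988078-53021660), was at 152, 218, 162 and 178 CPM in d6PGCLCs and at 123, 139, 132 and 145 CPM in PGCs. The highest PGC library stayed just under the lowest d6PGCLC library. The means were 178 ± 29.2 and 135 ± 9.70 CPM (SD, n = 4 each), a log2 fold change of 0.40 with a standard error of 0.11.

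Aprt, which converts adenine to AMP (chr8:122574637-122576907), was at 106, 132, 104 and 96.2 CPM in d6PGCLCs and at 58.3, 82.7, 73.4 and 74.8 CPM in PGCs. Every d6PGCLC library was above every PGC library, and replicate 2 was the highest of each group. The means were 110 ± 15.5 and 72.3 ± 10.2 CPM (SD, n = 4 each), and the log2 fold change was 0.60, standard error 0.12.

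Pnp and Ada act before this step. Pnp, purine nucleoside phosphorylase, which releases hypoxanthine and guanine from inosine and guanosine (chr14:50944303-50953412), was at 40.8, 47.3, 47.3 and 47.0 CPM in d6PGCLCs and at 41.3, 48.4, 40.5 and 44.4 CPM in PGCs. The groups overlapped throughout, with means of 45.6 ± 3.19 and 43.6 ± 3.60 CPM (SD, n = 4 each). The log2 fold change was 0.06, standard error 0.11, and -0.01 with a transcript length offset. The neighbouring gene Pnp2 is a copy of Pnp that shares part of its sequence. Of the 100-base stretches of the Pnp transcript, 7.84% also occur in a Pnp2 transcript, and since only uniquely mapped reads were counted, both genes can lose reads there. Exons of Pnp also overlap those of Gm49342 on the same strand and Gm38316 on the opposite strand. The sum of Pnp and Pnp2 was 50.7 ± 3.58 CPM in d6PGCLCs and 50.2 ± 5.24 CPM in PGCs (SD, n = 4 each).

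Ada, adenosine deaminase, which turns adenosine and deoxyadenosine into inosine and deoxyinosine (chr2:163726571-163750239), was at 10.7, 9.57, 12.8 and 16.0 CPM in d6PGCLCs and at 9.23, 9.58, 9.04 and 7.22 CPM in PGCs. Replicate 2 of the d6PGCLCs lay just under the highest PGC library, and the other 3 d6PGCLC libraries were above all PGC libraries. The means were 12.3 ± 2.82 and 8.77 ± 1.05 CPM (SD, n = 4 each), and the log2 fold change was 0.49 with a standard error of 0.19. Ada was not among the genes called, but was under 4 other settings and without either of 2 d6PGCLC libraries.

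The levels of different enzymes were compared per length, as RPKM, the CPM (here without TMM) per kilobase of the deposited gene length. Uck2, Hprt and Aprt stood at the top of both groups, with mean levels of 104 ± 12.2, 103 ± 16.6 and 102 ± 13.7 RPKM in d6PGCLCs and 80.2 ± 4.29, 80.0 ± 6.28 and 68.8 ± 10.9 RPKM in PGCs (SD, n = 4 each). These 3 enzymes overlapped one another in both groups and are not put in an order. Dck followed at 27.9 ± 1.42 RPKM in d6PGCLCs and 37.0 ± 2.23 RPKM in PGCs, apart from its neighbours in the order in both groups.

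Pnp and Uck1 came next, with overlapping levels of 14.2 ± 1.13 and 12.52 ± 1.99 RPKM in d6PGCLCs and 13.9 ± 1.45 and 12.6 ± 1.62 RPKM in PGCs (SD, n = 4 each). In d6PGCLCs, Upp1 at 8.33 ± 2.18, Ada at 5.56 ± 1.34 and Cda at 3.93 ± 0.504 RPKM formed the lower end, and each overlapped the enzyme next to it in the order, as Upp1 did with Uck1. In PGCs, Ada at 4.07 ± 0.561 RPKM was apart from Uck1 above it and from Upp1 at 0.493 ± 0.187 RPKM below it, and Upp1 overlapped Cda at 0.308 ± 0.209 RPKM. By their means with the deposited lengths, Upp1 and Ada were the 2 enzymes that changed places between the groups, though they overlapped in d6PGCLCs. The deposited length is longer than the annotated exons by 40 bases per exon for many genes. Whether reads on these bases were counted is not given in the sources used here, and none of the 9 enzymes matched a transcript with these bases exactly. With 40 bases per exon taken off the deposited lengths, the levels would be 1.08 to 1.29 times higher. Hprt and Aprt would then come before Uck2 in d6PGCLCs, and Hprt before Uck2 in PGCs. For Uck2, the deposited length of 1617 bases also leaves out most of its longest annotated transcript of 4731 bases.

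**Figure D2:**
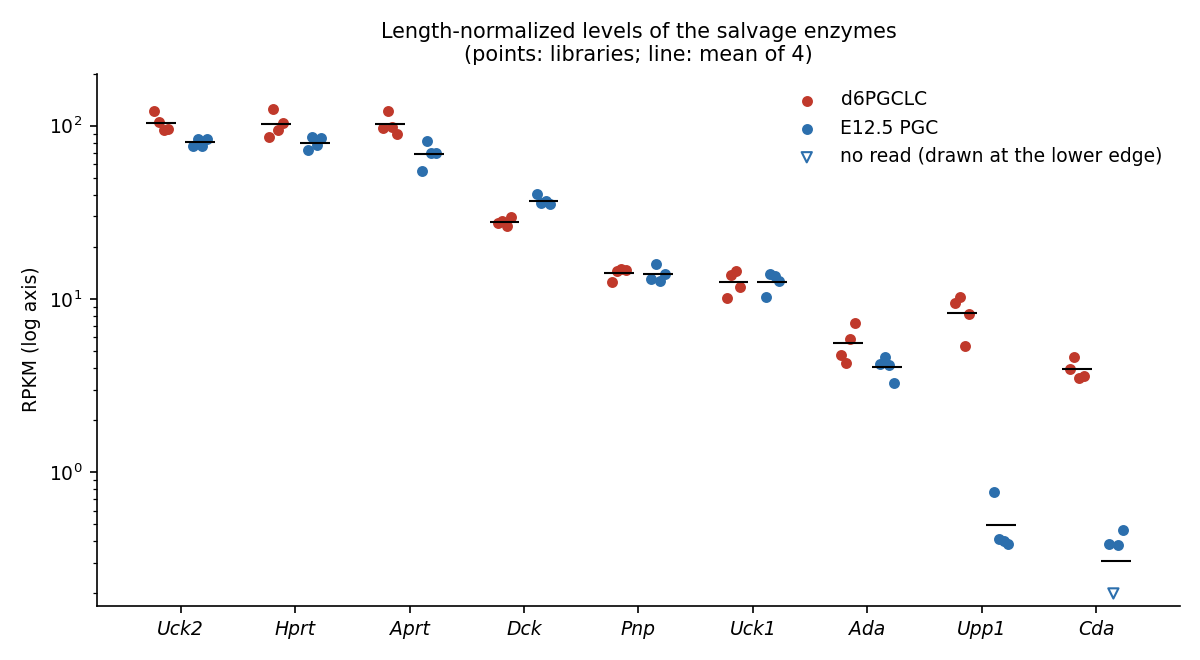
Length-normalized level (RPKM, log axis) of the 9 salvage enzymes in each library, ordered by the mean in E12.5 PGCs, with d6PGCLCs in red and PGCs in blue. Points are libraries, lines are means of 4, and the open triangle marks a library without a Cda read. Uck2, Hprt and Aprt lie between 54.8 and 125 RPKM in every library, and Upp1 and Cda lie under 1 RPKM in every PGC library.

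Pairs of enzymes that share a substrate class were set against each other within each library. The RPKM ratio of Uck2 to Uck1, the kinases with the same substrates, was 12.01, 7.65, 6.53 and 8.18 in d6PGCLCs and 7.46, 6.02, 5.66 and 6.61 in PGCs. Replicate 1 gave the highest ratio of each group, and the groups overlapped (means 8.59 ± 2.38 and 6.44 ± 0.789, SD, n = 4 each). The ratio of Hprt to Aprt was 0.893, 1.03, 0.969 and 1.15 in d6PGCLCs and 1.32, 1.05, 1.12 and 1.21 in PGCs, again with overlap (means 1.01 ± 0.110 and 1.18 ± 0.114). The isoform that was counted for each gene sets the absolute size of these ratios.

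**Figure D3:**
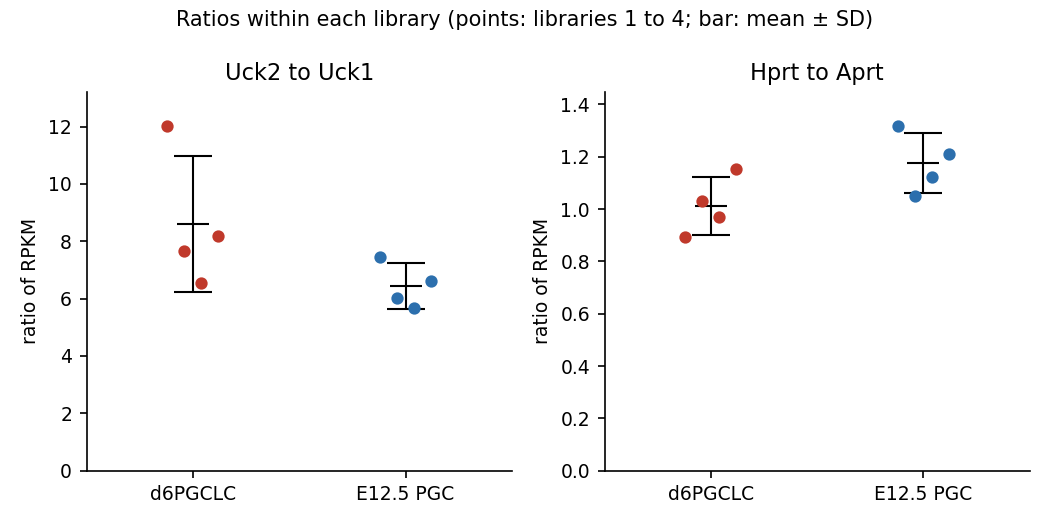
Ratio of the RPKM of Uck2 to Uck1 (left) and of Hprt to Aprt (right) in each library of d6PGCLCs (red) and E12.5 PGCs (blue). Points are libraries 1 to 4 from left to right and black marks the mean ± SD (n = 4). The d6PGCLC library with a Uck2 to Uck1 ratio of 12.01 stands above the other 7 libraries.

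The rest of nucleotide metabolism was described from 9 lists of textbook membership, of which 69 of 78 genes had a row. By the same test over all genes, 20 of the 69 rose and 16 fell in d6PGCLCs relative to PGCs, with a median log2 fold change of 0.0. This is 52.2% called, where 31.5% of all genes were, and among the 50 whose mean reached 10 counts 64.0% were called, where 53.7% of all such genes were. Those 50 genes had a median log2 fold change of 0.03. They held 32 of the 36 called genes, so the counts per list below include called genes with few reads. No list other than de novo pyrimidine synthesis was called throughout, and the directions were mixed within 6 of the 9 lists.

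Among the other salvage enzymes, 3 of 7 rose and 1 fell. Tk1 and Tk2 encode the cytosolic and mitochondrial thymidine kinases. Tk1 was at 59.0, 77.7, 66.1 and 56.4 CPM in d6PGCLCs and at 43.3, 50.0, 47.9 and 51.2 CPM in PGCs, without overlap (log2 fold change 0.43, standard error 0.12, edgeR adjusted p = 0.00663). Tk2 rose by a log2 fold change of 0.49 (standard error 0.14, edgeR adjusted p = 0.00709). Pnp2 had a log2 fold change of -0.37 with an edgeR adjusted p of 0.31.

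Of the 7 nucleoside transporters, 1 rose and none fell by this test. It was Slc28a1, the carrier whose promoter is shown above, at 72.2, 67.7, 57.5 and 58.9 CPM in d6PGCLCs and at 15.3, 18.9, 18.5 and 20.9 CPM in PGCs. The lowest d6PGCLC library was far above the highest PGC library, and the log2 fold change was 1.79 (standard error 0.13, edgeR adjusted p = 5.41e-10). The median log2 fold change of the 7 transporters was 0.25.

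Enzymes that take nucleotides apart moved both ways. Of 10 nucleotidases and AMP deaminases, 1 rose and 3 fell. Nt5c, a nucleotidase of pyrimidine deoxynucleotides, was at 11.7, 15.3, 19.2 and 16.0 CPM in d6PGCLCs and at 4.37, 5.79, 4.89 and 6.41 CPM in PGCs (log2 fold change 1.53, standard error 0.20, edgeR adjusted p = 2.14e-06). Nt5c2, the cytosolic nucleotidase of purine nucleotides, was at 64.1, 69.7, 56.1 and 64.7 CPM in d6PGCLCs and at 158, 124, 133 and 142 CPM in PGCs (log2 fold change -1.13, standard error 0.10, edgeR adjusted p = 1.82e-08). Of 5 genes of base breakdown, 2 rose, and 3 had at most 3 reads in every library. Only 1 of the 5 reached a mean of 10 counts. Dpys, a dihydropyrimidinase that acts on the breakdown product of uracil, rose by a log2 fold change of 0.84 (standard error 0.22, edgeR adjusted p = 0.0055), which became 0.53 with an adjusted p of 0.0509 without d6PGCLC replicate 2.

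In the de novo routes, genes rose and fell side by side. Of 12 purine genes, 5 rose and 3 fell. Adssl1, the muscle-type adenylosuccinate synthetase, had 134 reads in d6PGCLCs and 4 in PGCs, where all 4 libraries were at or under the limit of 3 reads, a pooled ratio of 34.8 with an exact 95% interval of 13.3 to 130 (edgeR adjusted p = 9.64e-07). Its fitted log2 fold change was 5.003, and 3.65 with a prior count of 2. Prps1, which makes the ribose phosphate donor used by Hprt and Aprt, rose by a log2 fold change of 1.20 (standard error 0.35, edgeR adjusted p = 0.00932) at a low mean of 3.17 CPM in d6PGCLCs and 1.40 CPM in PGCs. Of 5 pyrimidine genes, 2 rose and 3 fell. Umps, which makes UMP, rose by a log2 fold change of 0.70 (standard error 0.10, edgeR adjusted p = 7.83e-06), and Ctps2, a CTP synthase, had a log2 fold change of -0.90 (standard error 0.10, edgeR adjusted p = 2.38e-07).

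Of 9 genes of deoxynucleotide supply, 2 rose and 3 fell. Rrm2, the regulatory subunit of ribonucleotide reductase, was at 828, 776, 679 and 680 CPM in d6PGCLCs and at 363, 418, 371 and 399 CPM in PGCs (log2 fold change 0.93, standard error 0.09, edgeR adjusted p = 3.65e-08). Samhd1, which removes deoxynucleotide triphosphates, also rose (log2 fold change 0.95, standard error 0.10, edgeR adjusted p = 2.19e-07). Of 10 mono- and diphosphate kinases, 4 rose and 2 fell. Ak4, a mitochondrial adenylate kinase, was at 123, 103, 72.3 and 81.7 CPM in d6PGCLCs and at 12.9, 7.47, 8.30 and 5.69 CPM in PGCs (log2 fold change 3.49, standard error 0.19, edgeR adjusted p = 1.74e-11), and Nme4, a mitochondrial diphosphate kinase, rose by a log2 fold change of 1.34 (standard error 0.15, edgeR adjusted p = 4.12e-07). Of 4 adenosine receptors, Adora2b fell, from a mean of 2.61 CPM in PGCs to 0.972 CPM in d6PGCLCs (log2 fold change -1.40, standard error 0.35, edgeR adjusted p = 0.00301), and none rose.

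**Figure D4:**
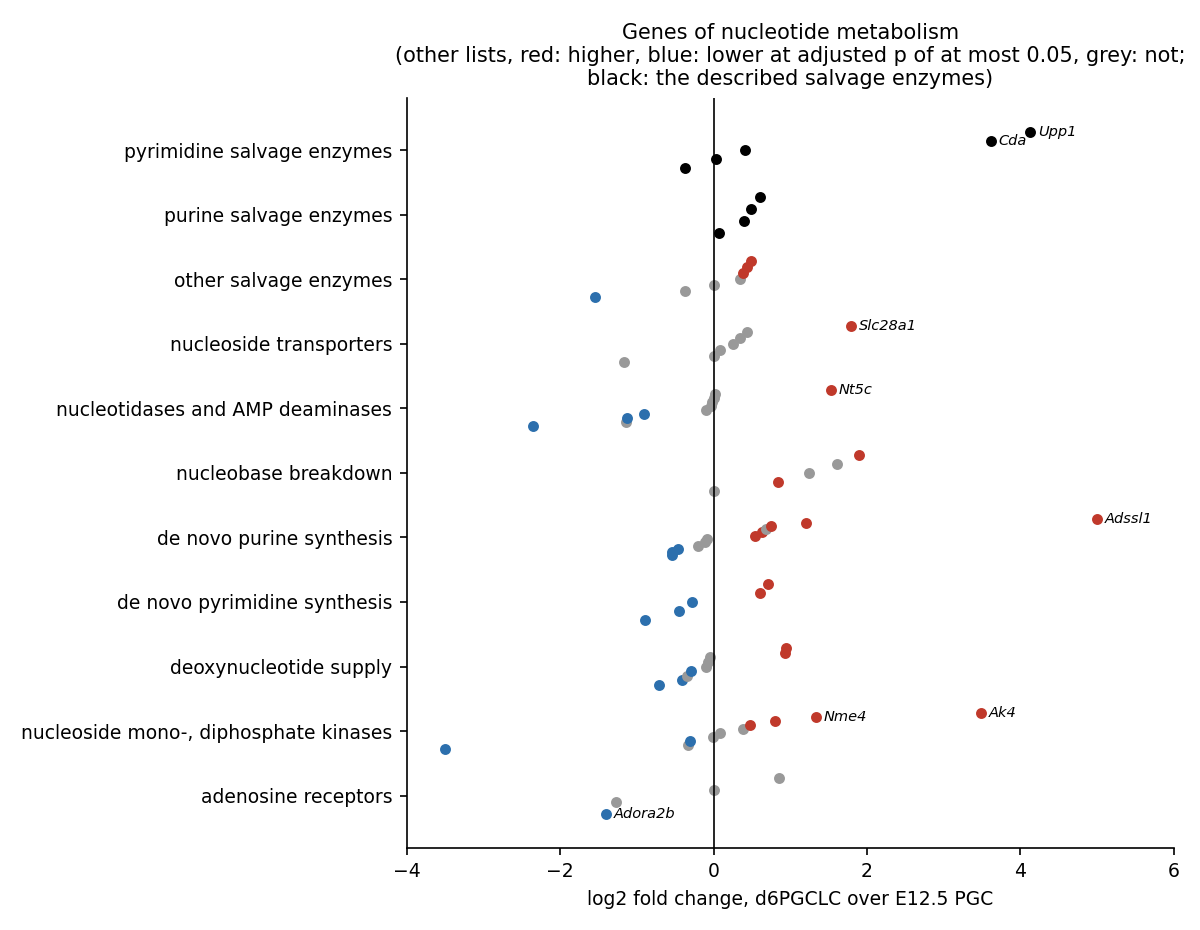
Log2 fold change of d6PGCLCs over E12.5 PGCs for the described salvage enzymes (black) and for 69 other genes of nucleotide metabolism in 9 lists. In the other lists, red points were higher and blue points lower at an edgeR adjusted p of at most 0.05, and grey points were not called. Upp1 and Cda lie beyond 3 on the log2 scale, and the other 7 described enzymes lie between -0.37 and 0.60.

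The libraries held 7991437 to 12024841 counted reads, and the libraries of a group differed from each other by more than sampling noise. All 11 germ cell markers were above 3 reads in every library, with a summed level of 3943 to 4519 CPM in d6PGCLCs and 4704 to 5283 CPM in PGCs. Single markers differed in both directions: Dppa3, Prdm1, Tfap2c and Pou5f1 were higher in every d6PGCLC library than in any PGC library, Dnd1, Itgb3, Fut4, Ddx4 and Dazl were lower, and Nanos3 and Kit overlapped. The 9 measured markers of gonadal somatic cells summed to 1.32 to 2.42 CPM in d6PGCLCs and 5.51 to 11.4 CPM in PGCs. Markers of somatic and epiblast-like cells of the culture summed to 15.2 to 36.0 CPM in d6PGCLCs and 57.0 to 65.0 CPM in PGCs, and 6 endothelial markers to 32.9 to 49.9 and 27.7 to 45.2 CPM. Their part in the levels above was not tested.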

How the data were processed

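The deposited counts per gene are raw and hold uniquely mapped reads only. Poly(A) RNA was sequenced single-end, reads were aligned with STAR to GRCm38 with ERCC sequences, and QuasR counted reads over the exons of 1 randomly chosen transcript per gene, per the study's methods, in which genes with overlapping promoters were thinned at random. Whether counting used strand is not given in the sources used here. The other deposited column is the gene length in bases. It equalled a GENCODE transcript length plus 40 bases per exon in 5177 of 21330 genes, and the plain length in 22.

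Entrez identifiers were matched to RefSeq symbols (21907 of 21950). Counts were scaled by TMM and fitted with edgeR 4.0.16 in R 4.3.3 (glmQLFit, glmQLFTest, prior count 0.125, cell type only, no filter, Benjamini-Hochberg over all genes), and the code was tested on simulated data. Calls used an adjusted p of at most 0.05. RPKM used the deposited length and the sum of counted reads. Depth was 8054596 to 12024841 reads in d6PGCLCs and 7991437 to 11166023 in PGCs, and counts of at most 3 were taken as the limit of detection; intervals cover counting error only. The p-values measure the spread between pools.

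The alternatives were edgeR's likelihood ratio test, DESeq2 1.42.0, other normalizations, a CPM filter, prior count 2, a length offset, a replicate block and leaving out each library. The enzymes and lists were chosen with earlier results of these data known. All 10 enzymes are named, Pnp with its copy Pnp2, and of each other list the 2 largest log2 fold changes among called genes whose mean reached 10 counts. The promoters shown were chosen after the values were seen. No library was left out.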

Additional observations from a re-analysis of the deposited data

Results flagged for a closer look

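Of 54 sets of 4 libraries, made from the CPM of each named gene and the 2 within-library ratios in each group, 3 had a library whose gap to the others took up more of the range than the 95% limit of Dixon's test, where chance gives 2.7. Upp1 was at 1.25 CPM in E12.5 PGC replicate 1, the highest of its group and still below every d6PGCLC library. Pnp was at 40.8 CPM in d6PGCLC replicate 1, the lowest of its group. Tk2 was at 22.5 CPM in E12.5 PGC replicate 3, the highest of its group and below every d6PGCLC library.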

How the results depend on the processing

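The counts of called enzymes, called related genes and called genes overall stayed within 1.5 times of their values under every alternative run. As a description, since the enzymes were chosen with this contrast known, 6 or 7 of them were called in the 16 settings, in which 5978 to 7333 of all genes were called (6919 as reported), with Ada added under the likelihood ratio test, DESeq2, the CPM filter and the replicate block and without d6PGCLC replicate 1 or 2. With the replicate block 7 enzymes and 7270 of all genes were called. Deviations of same-numbered libraries correlated at 0.273, 0.104, -0.0227 and 0.0352, and not every library correlated best with its own number, so the numbers were not taken as pairs. The log2 fold change of Uck1 turned to -0.0073 with library size normalization and -0.085 with the length offset and ranged from -0.053 to 0.11 when a library was left out. That of Pnp turned to -0.0097 with the length offset. With a prior count of 2, the log2 fold change of Cda was 3.00 in place of 3.62 and that of Adssl1 3.65 in place of 5.003, as the prior count pulls in the folds of genes with few reads. The cause of the other shifts was not tested. The number of enzymes whose rank by RPKM changed ranged from 0 to 3 when a library was left out, with 3 without d6PGCLC replicate 1 and 2 without d6PGCLC replicate 4 or E12.5 PGC replicate 1. It was 3 with the length without 40 bases per exon, an alternative added after seeing the data, as was leaving out libraries for the ratios. Depth limits Cda in PGCs, where 12 reads were counted in all, and Upp1, where 30 were.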
